A study of Homo sapiens with 4 samples.

Results

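Kinetochore and mitotic spindle genes are described here in Huh1 and Huh7 cells after CDCA8 knockdown. They were chosen as a list of 50 gene symbols, each of which names 1 row among the 18398 in the expression tables, and all 50 were found. By role, 3 code for the centromeric histone CENP-A and its loading factors, 12 for the inner kinetochore, 9 for the outer kinetochore, 5 for the ROD-ZW10-Zwilch complex and the corona, 5 for the spindle checkpoint, 3 for the SKA complex and 13 for spindle proteins. Both lines are established and derive from human hepatocellular carcinoma. RNA was sequenced from cells transfected with 15 nM of CDCA8siRNA, which targets CDCA8, or of the negative control NCsiRNA for 48 h, with a cationic lipid in each case. The 4 libraries were Huh1 with NCsiRNA, Huh1 with CDCA8siRNA, Huh7 with NCsiRNA and Huh7 with CDCA8siRNA. Each condition was 1 library, so the spread between cultures of a condition could not be measured, and 1 siRNA sequence stands for the knockdown. Synchronisation of the cells is not described in the sources used here.

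At mitosis the inner kinetochore assembles on chromatin that holds CENP-A, and the outer kinetochore binds spindle microtubules through the NDC80 complex. Kinetochores without proper attachment recruit the corona and the checkpoint proteins, which hold back anaphase until every chromosome is attached. CDCA8, also called Borealin, is a subunit of the chromosomal passenger complex, which corrects wrong attachments through Aurora B. Many genes of this machinery are transcribed mainly in late S phase, G2 and M phase, through promoter elements that include the cell cycle homology region (CHR), the CCAAT box and E2F sites.

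The value for each gene was RPKM, which scales its reads to transcript length and to the depth of the library. The depth of the libraries was estimated at about 12197606 to 13384836 reads, from the RPKM values taken to stand for 1 read and from transcript length. CDCA8 itself had 24.1 RPKM in Huh1 with NCsiRNA and 5.86 with CDCA8siRNA, and 51.5 and 7.36 RPKM in the same order in Huh7. It was thus at 24.3% and 14.3% of its control level. All 8 hepatocyte and hepatoma markers were over 1 RPKM in the 4 libraries, and none of 4 leukocyte and 2 endothelial markers was over 1 RPKM in any. Of 3 fibroblast genes, COL1A1 and COL1A2 were over 1 RPKM in Huh7 only, where the 3 summed to 139 and 183 RPKM against 0.168 and 0.170 in Huh1. Whether cells of another type had a part in any difference of Huh7 from Huh1 was not tested.

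The 50 genes were all expressed, between 2.94 and 141 RPKM, and each had at least 1 RPKM in all 4 libraries. Their reads, estimated from RPKM and transcript length, ran from 31 to 8517 per gene and library. Fold changes are differences of log2(RPKM + 1), and the added 1 shrinks the change of a gene with a low level. Sampling of reads alone gave a member's log2 fold change between 2 libraries an SD of 0.0238 to 0.266, with a median of 0.0715. That SD covers counting error only and holds no variation between cultures. The siRNA effect over both cell lines was fitted with limma on all 4 libraries, with a term for the cell line. The fit covered the 10357 genes that reached 1 RPKM in 1 or both libraries of Huh1 and likewise of Huh7. That fit leaves 1 residual degree of freedom, which comes from how alike the responses of Huh1 and Huh7 were rather than from replicate cultures. To it limma adds a prior of 8.29 degrees of freedom, taken from the spread over all genes tested. The SE and p-value of a gene thus rest more on that prior than on its own agreement between Huh1 and Huh7. A gene is called here where its Benjamini-Hochberg adjusted p was under 0.05.

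After CDCA8 knockdown 7 of the 50 genes fell, namely NUSAP1, PLK1, ZWILCH, SPC24, CENPW, BUB3 and FAM83D, which is 14% of the members against 4.21% of all genes tested. ZW10 and SKA2 rose, which is 4% against 6.03% of all genes tested. The other 41 were not called. Counts by role given below rest on 3 to 13 genes each and were not tested against these shares. In all, 16 of the 50 members had an unadjusted limma p under 0.05, beside 2694 of the 10357 genes tested. The median log2 fold change of the 50 was -0.10 beside 0.03 over all genes tested, and 70% of them had a negative value beside 44.9% of all genes. Within Huh1 the members' median was -0.06 and within Huh7 -0.10, beside 0.02 and 0.03 over all genes in those cell lines. The sum of the 50 levels was 1196 RPKM with NCsiRNA and 1091 with CDCA8siRNA in Huh1, and 1815 and 1619 RPKM in Huh7. Without NUSAP1 the sum was 1159 and 1073 RPKM in Huh1 and 1720 and 1586 RPKM in Huh7. Abundant genes weigh most in such a sum. RNA was taken from whole cultures, so a different share of cells in mitosis and a different amount of a gene's RNA per cell cannot be told apart. Calls of the siRNA effect depended on the fit, since limma called 0 members without the cell line as a covariate or without the filter on low values.

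**Figure D1:**
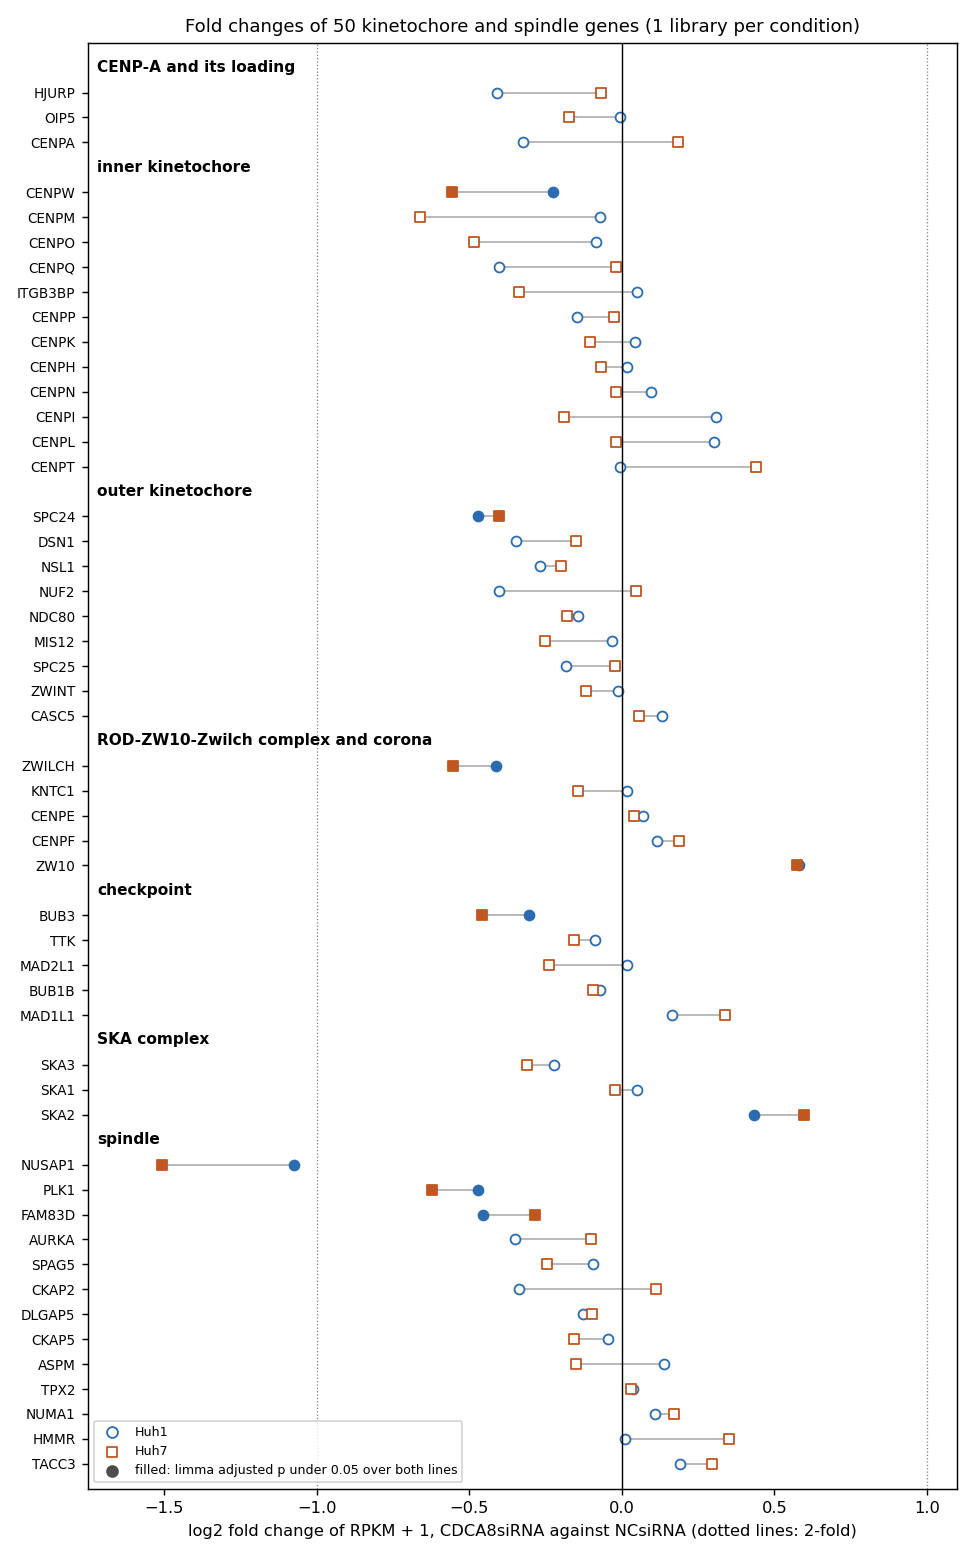
Log2 fold change of RPKM + 1 for CDCA8siRNA against NCsiRNA for each of the 50 genes, grouped by role, with a circle for Huh1 and a square for Huh7 (1 library per condition) and filled symbols for the 9 genes called by limma over both cell lines. NUSAP1 lies past 2-fold lower in both cell lines, and 46 genes lie within 1.5-fold on this scale in Huh1 and in Huh7.

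Single pairs of libraries gave few large changes. In Huh1 1 member, NUSAP1, was at least 1.5-fold lower with CDCA8siRNA (2% of the members, 1.27% of genes at 1 RPKM or more), and 0 were at least 1.5-fold higher (2.48% of genes). In Huh7 3 members, NUSAP1, CENPM and PLK1, were at least 1.5-fold lower (6% of the members, 3.42% of genes), and SKA2 was at least 1.5-fold higher (2% of the members, 5.3% of genes). ZW10 stayed under 1.5-fold only through the added 1. Its plain ratio of RPKM was 1.54 in Huh1 and 1.55 in Huh7. At 2-fold, NUSAP1 was the 1 member that was lower, in Huh1 (0.174% of genes) and in Huh7 (0.7% of genes). No member was 2-fold higher in Huh1 (0.32% of genes) or in Huh7 (0.873% of genes). A total of 26 members were lower with CDCA8siRNA in both cell lines, 10 were higher in both and 14 had opposite signs. The shares of all genes in these 3 classes are not given here. Taken singly, 60% of the members were lower in Huh1 (44.9% of genes) and 72% in Huh7 (45.5% of genes). The change was beyond 2 counting SD for 26 members in Huh1 (52% of the members, 43.6% of genes with a length) and for 32 in Huh7 (64% of the members, 53.3% of genes). Across cell lines, both CDCA8siRNA libraries were below both NCsiRNA libraries for 7 members (14% of the members, 7.84% of all genes tested), of which NUSAP1, CENPW and BUB3 were called and CENPM, CENPP, CENPQ and MIS12 were not. Both were above for 2 members (4% of the members, 9.78% of all genes tested), ZW10, which was called, and MAD1L1, which was not. Across the 50 members, the log2 fold changes of Huh1 and Huh7 had a Pearson r of 0.678 and a Spearman rho of 0.502, and without NUSAP1 the r was 0.543 (n = 49). Over all genes tested the r was 0.604. These points share libraries and are no independent replicates.

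NUSAP1, which binds and bundles spindle microtubules around chromosomes, had the largest change of the members. Its level was 37.7 RPKM in Huh1 with NCsiRNA and 17.4 with CDCA8siRNA, and 95.3 and 32.8 RPKM in Huh7. Both CDCA8siRNA libraries were below both NCsiRNA libraries. The level after knockdown was 46.1% of the control in Huh1 and 34.5% in Huh7. By log2 fold change NUSAP1 stood at place 12 from the bottom among 10940 genes in Huh1 and at place 17 among 11565 genes in Huh7, counted over genes that reached 1 RPKM in either library of the pair. The limma log2 fold change was -1.29 ± 0.12 (SE) with a Benjamini-Hochberg adjusted p of 0.00087. TPX2, another microtubule binding protein of the spindle and an activator of Aurora A, stood in contrast at 68.6 and 70.4 RPKM in Huh1 and at 138 and 141 RPKM in Huh7. The ratio of NUSAP1 to TPX2 was thus 0.550 and 0.688 with NCsiRNA and 0.247 and 0.232 with CDCA8siRNA, in Huh1 and Huh7.

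NUSAP1 lies head to head with another member, OIP5, which codes for a subunit of the MIS18 complex that brings new CENP-A to centromeres. In the RefSeq annotation of GRCh38.p14 their starts lie 290 bases apart on chromosome 15, and the 250 bases before each start share 211 bases, chr15:41332631-41332841. OIP5 had 13.7 RPKM in Huh1 with NCsiRNA and 13.6 with CDCA8siRNA, and 24.3 and 21.4 RPKM in Huh7. Its levels hardly moved in Huh1 and were slightly lower in Huh7, and limma did not call it (log2 fold change -0.09, Benjamini-Hochberg adjusted p of 0.635). The ratio of NUSAP1 to OIP5 was 2.76 and 3.92 with NCsiRNA and 1.28 and 1.53 with CDCA8siRNA, in Huh1 and Huh7. The sequence before NUSAP1 is shown because the bases that it shares with OIP5 lie between 1 gene that fell and 1 that was not called. The sequences before PLK1, a second member that fell, and ZW10, which rose, are shown beside it. They come from RefSeq on GRCh38.p14, 250 bases up to the base before the start, 5′ to 3′ on the strand of the gene, at chr15:41332631-41332880 (+ strand) for NUSAP1, chr16:23678639-23678888 (+ strand) for PLK1 and chr11:113773693-113773942 (- strand) for ZW10. Capitals mark CHR, CCAAT and E2F letters on either strand.
NUSAP1: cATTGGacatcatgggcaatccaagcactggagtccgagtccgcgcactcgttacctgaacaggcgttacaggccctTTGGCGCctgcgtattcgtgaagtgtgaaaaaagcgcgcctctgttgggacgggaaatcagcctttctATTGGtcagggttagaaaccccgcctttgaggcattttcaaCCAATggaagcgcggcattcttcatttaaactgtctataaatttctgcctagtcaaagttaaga
PLK1: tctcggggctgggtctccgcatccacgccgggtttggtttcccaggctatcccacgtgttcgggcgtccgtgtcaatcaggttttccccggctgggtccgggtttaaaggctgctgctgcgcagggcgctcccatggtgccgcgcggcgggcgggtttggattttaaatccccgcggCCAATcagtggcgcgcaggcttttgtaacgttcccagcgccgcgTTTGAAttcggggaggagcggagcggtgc
ZW10: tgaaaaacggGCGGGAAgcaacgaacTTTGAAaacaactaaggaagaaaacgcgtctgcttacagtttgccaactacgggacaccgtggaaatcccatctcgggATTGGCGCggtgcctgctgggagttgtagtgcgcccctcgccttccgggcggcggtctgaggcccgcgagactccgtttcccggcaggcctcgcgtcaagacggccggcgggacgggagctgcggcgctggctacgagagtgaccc

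The letters searched were TTTGAA or else TTCGAA for the CHR, CCAAT for the CCAAT box, and 4 E2F forms, each searched with its reverse complement. The E2F forms were TTCCCGC as well as TTGGCGC, besides TTCGCGC and lastly TTGCCGC. NUSAP1 held 3 CCAAT boxes and 1 E2F match in these 250 bases, and these lie within the stretch shared with OIP5. PLK1 held a CCAAT box 73 to 69 bases and a CHR 29 to 24 bases before its start. ZW10 held a CHR and 2 E2F matches, and its CCAAT box overlaps 1 of the E2F matches. Over windows of 300 bases that include 50 bases after the start, 40 of the 50 members had an entry in the RefSeq table, and CENPH, CENPL, CENPM, CASC5, KNTC1, BUB3, TTK, TPX2, AURKA and FAM83D had none. A CHR was found in 23 of the 40 (57.5%) beside 16.6% of all 27305 promoters in that table. A CCAAT box was found in 23 (57.5%) beside 35.7% of all promoters, and an E2F match in 15 (37.5%) beside 13.1%. A CHR together with a CCAAT box occurred in 16 members (40%) beside 6.58% of all promoters. Among the 8544 promoters of genes that were tested here, the shares were 11.1% for the CHR, 37.5% for the CCAAT box, 21.7% for E2F and 4.85% for the CHR with a CCAAT box. Of the members that fell and had an entry, 3 of 5 held a CHR (CENPW, NUSAP1 and PLK1), compared with 1 of 2 that rose (ZW10) and 19 of 33 that were not called. The CHR of NUSAP1 lies in the bases after its start and is thus not in the sequence shown. The window of OIP5, which was not called, also held a CHR outside the bases that it shares with NUSAP1. All 5 that fell and both that rose held a CCAAT box, compared with 16 of 33 not called. An E2F match was held by 1 of 5 that fell (NUSAP1), 1 of 2 that rose (ZW10) and 13 of 33 not called. These matches describe letters in a window and are no measured binding sites. The windows are from GRCh38.p14, whereas the expression tables are labelled hg19.

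The remaining spindle genes that fell were PLK1 and FAM83D. PLK1, the Polo-like kinase of centrosomes, kinetochores and mitotic entry, had 30.4 RPKM in Huh1 with NCsiRNA and 21.7 with CDCA8siRNA, and 77.7 and 50.1 RPKM in Huh7. It was lower with CDCA8siRNA in each cell line, although the Huh7 level after knockdown stayed above the Huh1 control. The limma log2 fold change was -0.55 ± 0.09 (SE) with a Benjamini-Hochberg adjusted p of 0.00938. Exons of PLK1 overlap 2 genes on the other strand, of which ERN2 had 0.00704 to 0.166 RPKM in the 4 libraries. The level of the other gene is not given here. FAM83D, which directs casein kinase 1 to the spindle, had 35.0 and 25.2 RPKM in Huh1 and 62.9 and 51.4 RPKM in Huh7. The siRNA groups overlapped across the cell lines here too, and limma gave -0.37 ± 0.09 (SE) with a Benjamini-Hochberg adjusted p of 0.0388. The 10 other spindle genes were not called for the siRNA. AURKA, the spindle pole kinase Aurora A, had 59.9 and 46.8 RPKM in Huh1 and 78.5 and 73.1 RPKM in Huh7 (limma Benjamini-Hochberg adjusted p of 0.166). The ratio of PLK1 to AURKA was 0.508 and 0.989 with NCsiRNA and 0.463 and 0.686 with CDCA8siRNA, in Huh1 and Huh7. TACC3, a clathrin-binding protein that crosslinks kinetochore fibres, had the highest value among the spindle genes not called, with a log2 fold change of 0.24. The microtubule polymerase CKAP5, the kinetochore fibre protein DLGAP5, the spindle pole proteins ASPM and HMMR, the astrin protein SPAG5 and CKAP2 had limma log2 fold changes from -0.17 for SPAG5 to 0.18 for HMMR. NUMA1, which recruits dynein to spindle poles, had 20.3 and 22.0 RPKM in Huh1 and 13.9 and 15.8 RPKM in Huh7. The median siRNA log2 fold change of the 13 spindle genes was -0.11.

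**Figure D2:**
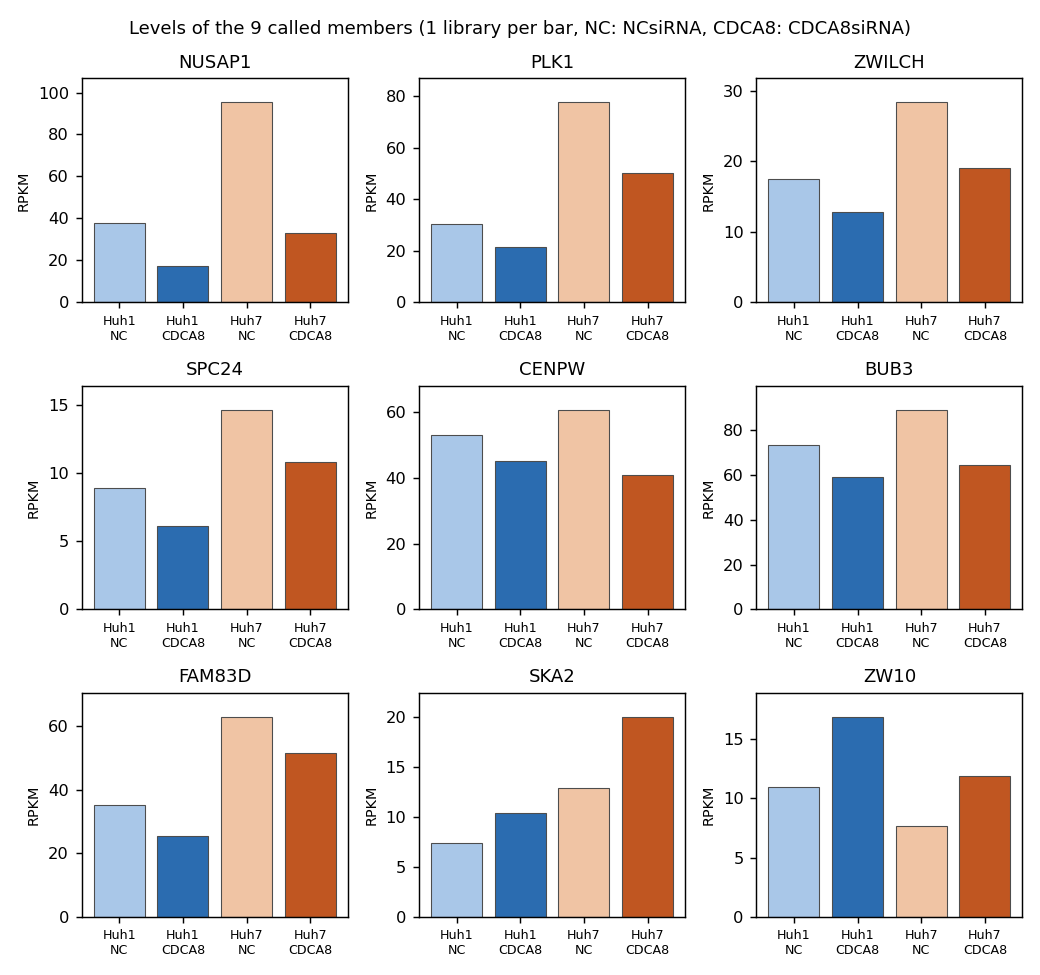
RPKM of the 9 genes called for the siRNA effect, 1 bar per library, with NCsiRNA (NC) beside CDCA8siRNA (CDCA8) for Huh1 and Huh7. In NUSAP1, CENPW and BUB3 both knockdown bars lie below both control bars, in ZW10 both lie above, and in the other 5 genes the siRNA groups overlap across cell lines although the direction is the same in each.

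In the outer kinetochore, 1 of 9 genes fell and 0 rose (4.21% and 6.03% of all genes tested). SPC24, a subunit of the NDC80 complex on the side that docks onto the inner kinetochore, had 8.91 RPKM in Huh1 with NCsiRNA and 6.14 with CDCA8siRNA, and 14.7 and 10.8 RPKM in Huh7. It was lower with CDCA8siRNA in both cell lines, and the siRNA groups overlapped across them. The limma log2 fold change was -0.44 ± 0.11 (SE) with a Benjamini-Hochberg adjusted p of 0.0346. Exons of SPC24 overlap 1 gene on the other strand, whose level is not given here. SPC24 was the lowest of the 4 NDC80 complex subunits in every library. Its direct partner SPC25 had 29.8 and 26.1 RPKM in Huh1 and 32.0 and 31.5 RPKM in Huh7. The ratio of SPC25 to SPC24 was 3.34 and 2.18 with NCsiRNA and 4.25 and 2.90 with CDCA8siRNA, in Huh1 and Huh7.

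Of the microtubule-binding pair of the same complex, limma called NDC80 for the cell line and NUF2 for neither effect. NDC80 had 17.9 and 16.1 RPKM in Huh1 and 44.5 and 39.2 RPKM in Huh7. NUF2, its coiled-coil partner, had 28.2 and 21.1 RPKM in Huh1 and 23.0 and 23.8 RPKM in Huh7. NUF2 was the higher of the pair in both Huh1 libraries and NDC80 in both Huh7 libraries, with a ratio of NUF2 to NDC80 of 1.58 and 1.31 in Huh1 and of 0.516 and 0.606 in Huh7. In the MIS12 complex, which links the inner to the outer kinetochore, NSL1 was the lowest subunit in every library, at 3.74 and 2.94 RPKM in Huh1 and at 5.39 and 4.57 RPKM in Huh7. Its partners DSN1 and MIS12 were not called for the siRNA either, with log2 fold changes of -0.25 and -0.14. PMF1, the other subunit, is not among the 50 genes. It had 58.2 and 52.5 RPKM in Huh1 and 52.5 and 32.6 RPKM in Huh7 and was not called (log2 fold change -0.41, limma Benjamini-Hochberg adjusted p of 0.0676). ZWINT, which links the KNL1 scaffold to the ROD-ZW10-Zwilch complex, was the most abundant outer kinetochore gene, with 48.8 and 48.3 RPKM in Huh1 and 89.0 and 81.9 RPKM in Huh7. CASC5, the KNL1 scaffold for checkpoint proteins, was the 1 outer kinetochore gene with a positive value, 0.09. The median over the 9 genes was -0.16.

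ZWILCH and ZW10, subunits of the same ROD-ZW10-Zwilch complex that brings dynein and MAD1-MAD2 to kinetochores, moved in opposite directions. ZWILCH had 17.4 RPKM in Huh1 with NCsiRNA and 12.8 with CDCA8siRNA, and 28.3 and 19.0 RPKM in Huh7. It was lower with CDCA8siRNA in both cell lines (limma log2 fold change -0.48 ± 0.10 (SE), Benjamini-Hochberg adjusted p of 0.0197), and the groups overlapped across them. ZW10 had 11.0 and 16.9 RPKM in Huh1 and 7.65 and 11.9 RPKM in Huh7. Both ZW10 values with CDCA8siRNA were above both control values (limma log2 fold change 0.58 ± 0.10 (SE), Benjamini-Hochberg adjusted p of 0.0116). The changes of ZW10 in the separate cell lines were 0.58 and 0.57. The ratio of ZWILCH to ZW10 was 1.59 and 3.70 with NCsiRNA and 0.760 and 1.60 with CDCA8siRNA, in Huh1 and Huh7. Exons of ZWILCH overlap RPL4 on the other strand, a ribosomal protein gene at 1079 and 1018 RPKM in Huh1 and at 1318 and 1255 RPKM in Huh7. They also overlap LCTL, at 3.37 and 2.14 RPKM in Huh1 and at 8.17 and 9.22 RPKM in Huh7. Whether reads were assigned by strand is not given in the sources used here, and the part of reads from either gene in the ZWILCH values was not tested. ZW10 has no such overlap. KNTC1, the ROD subunit, had 7.76 and 7.87 RPKM in Huh1 and 16.9 and 15.2 RPKM in Huh7 and was not called for the siRNA.

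The corona proteins CENPE and CENPF were not called for the siRNA either. CENPE, a kinesin that carries chromosomes to the metaphase plate, had 5.95 and 6.30 RPKM in Huh1 and 18.3 and 18.9 RPKM in Huh7. The siRNA pair differed little in each cell line, while both Huh7 libraries lay above both Huh1 libraries. CENPF, a large coiled-coil protein that binds dynein regulators, was the most abundant of this group, with 25.7 and 27.9 RPKM in Huh1 and 43.6 and 49.8 RPKM in Huh7.

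**Figure D3:**
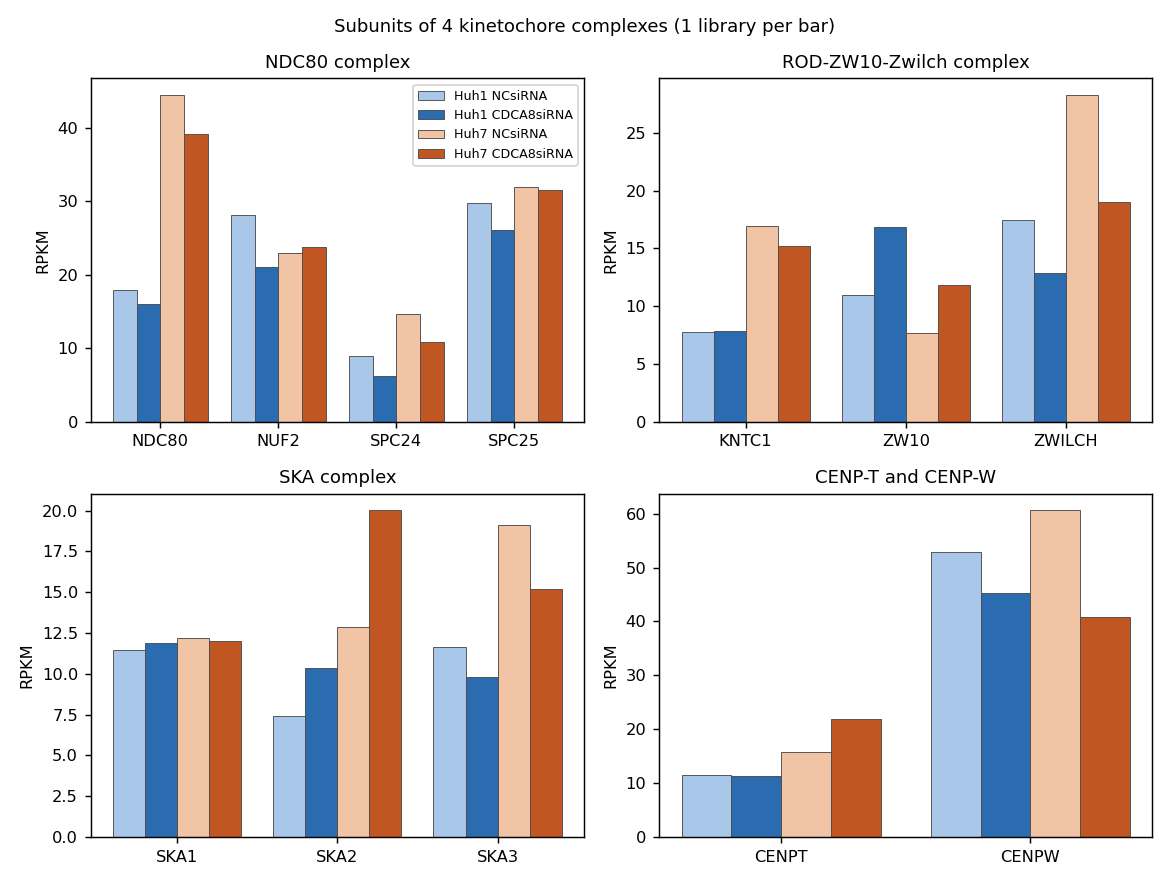
RPKM of the subunits of the NDC80, ROD-ZW10-Zwilch and SKA complexes and of the CENP-T and CENP-W pair, with 1 bar per library (light bars NCsiRNA, dark bars CDCA8siRNA, blue Huh1, orange Huh7). ZW10 and SKA2 are higher with CDCA8siRNA in both cell lines, while ZWILCH, SKA3, SPC24 and CENPW are lower, and SPC24 is the lowest subunit of its complex in each library.

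The SKA complex keeps kinetochores on shrinking microtubule ends. Of its 3 genes 1 rose and 0 fell (6.03% and 4.21% of all genes tested). SKA2 had 7.42 RPKM in Huh1 with NCsiRNA and 10.4 with CDCA8siRNA, and 12.9 and 20.0 RPKM in Huh7. It was higher with CDCA8siRNA in both cell lines, although the Huh1 knockdown library stayed below the Huh7 control (limma log2 fold change 0.52 ± 0.11 (SE), Benjamini-Hochberg adjusted p of 0.0193). By its GENCODE length SKA2 rested on few reads, about 62 and 86 in Huh1 and 98 and 154 in Huh7. Its counting SD was then 0.22 and 0.17, and the length that the authors used is not known. It also has a pseudogene named SKA2P1, so the way reads were shared between them could change its values. SKA3 had 11.6 and 9.82 RPKM in Huh1 and 19.1 and 15.2 RPKM in Huh7 and was not called (log2 fold change -0.27, limma Benjamini-Hochberg adjusted p of 0.138). SKA1 stayed between 11.5 and 12.2 RPKM in the 4 libraries. The ratio of SKA3 to SKA2 was 1.57 and 1.48 with NCsiRNA and 0.945 and 0.759 with CDCA8siRNA, in Huh1 and Huh7.

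In the inner kinetochore, 1 of 12 genes fell and 0 rose (4.21% and 6.03% of all genes tested). CENPW, which forms a histone-fold dimer with CENPT, had 53.0 RPKM in Huh1 with NCsiRNA and 45.2 with CDCA8siRNA, and 60.7 and 40.9 RPKM in Huh7. Both CDCA8siRNA values were below both control values (limma log2 fold change -0.39 ± 0.10 (SE), Benjamini-Hochberg adjusted p of 0.0447). CENPT had 11.4 RPKM in both Huh1 libraries and 15.8 and 21.8 RPKM in Huh7, and it was not called. The ratio of CENPW to CENPT was 4.63 and 3.97 in Huh1 and 3.83 and 1.87 in Huh7. CENPM, which belongs to the same module as CENPH, CENPI and CENPK, had 17.2 and 16.3 RPKM in Huh1 and 18.6 and 11.4 RPKM in Huh7. It was past 1.5-fold lower in Huh7 alone and was not called over both cell lines (log2 fold change -0.37, limma Benjamini-Hochberg adjusted p of 0.132). CENPO, of the CENP-O complex that recruits PLK1, had 12.3 and 11.6 RPKM in Huh1 and 18.6 and 13.0 RPKM in Huh7, and it was not called. CENPP, its partner, was the lowest inner kinetochore gene, with 3.79 and 3.33 RPKM in Huh1 and 3.34 and 3.26 RPKM in Huh7. CENPQ and ITGB3BP (CENP-R), which also belong to that complex, and CENPH, CENPK, CENPL and CENPN had limma log2 fold changes from -0.21 for CENPQ to 0.14 for CENPL. None of them was called.

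Among CENP-A and its loading factors no gene was called for the siRNA. CENPA had 7.21 and 5.57 RPKM in Huh1 and 15.4 and 17.7 RPKM in Huh7, lower with CDCA8siRNA in Huh1 and higher in Huh7. HJURP, the chaperone that deposits CENP-A, had 49.1 and 36.7 RPKM in Huh1 and 30.8 and 29.4 RPKM in Huh7. The largest part of the HJURP difference was thus between the Huh1 libraries, where the log2 fold change was -0.41, and the fit over both cell lines gave -0.24 (limma Benjamini-Hochberg adjusted p of 0.197).

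Of the 5 checkpoint genes, BUB3 fell and 0 rose (4.21% and 6.03% of all genes tested fell and rose). BUB3, a WD-repeat protein that carries BUB1 and BUBR1 to phosphorylated KNL1, had 73.6 RPKM in Huh1 with NCsiRNA and 59.3 with CDCA8siRNA, and 89.2 and 64.6 RPKM in Huh7. Both CDCA8siRNA values were below both control values (limma log2 fold change -0.38 ± 0.09 (SE), Benjamini-Hochberg adjusted p of 0.0277). BUB3 rested on about 6129 to 8517 reads per library, and it has a pseudogene named BUB3P1. BUB1B, which codes for BUBR1, had 46.2 and 43.9 RPKM in Huh1 and 53.5 and 50.1 RPKM in Huh7. MAD2L1, the MAD2 protein that captures CDC20, had 42.5 and 43.0 RPKM in Huh1 and 79.7 and 67.3 RPKM in Huh7. MAD1L1, which anchors MAD2 and was the lowest checkpoint gene, had 11.4 and 12.9 RPKM in Huh1 and 11.3 and 14.5 RPKM in Huh7. None of these was called, nor was TTK, the MPS1 kinase that starts checkpoint signalling, at -0.12.

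The cell line difference was larger than the siRNA difference for most members. In the limma fit with the siRNA as a covariate, 32 of the 50 were called higher in Huh7 (64% of the members, 39.1% of all genes tested) and 5 were called lower (10% of the members, 28.7% of all genes tested). The median log2 difference of the members was 0.50 beside 0.10 over all genes tested. Without the filter on low values 20 members were called higher and 2 lower, and without the siRNA term 25 and 1, when HJURP, NUSAP1, ZWILCH and ZW10 were among those that lost their call. Here the siRNAs take the place of replicates, and the cell lines differ in many ways besides this machinery. The members called lower in Huh7 were HJURP, CENPL, ZW10, ASPM and NUMA1. The 13 not called were CENPH, CENPM, CENPP, CENPQ, CENPW, ITGB3BP, NUF2, SPC25, MIS12, BUB1B, BUB3, MAD1L1 and SKA1. By role, 11 of 13 spindle genes and 4 of 5 genes of the ROD-ZW10-Zwilch complex and corona were called higher in Huh7. The counts were 6 of 9 for the outer kinetochore, 2 of 3 for the SKA complex and 2 of 3 for CENP-A and its loading. They were 5 of 12 for the inner kinetochore and 2 of 5 for the checkpoint. These counts by role were not tested against each other.

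In the NCsiRNA libraries alone 41 members were higher in Huh7 and 9 lower (18% of the members, 42.8% of genes at 1 RPKM or more). At 2-fold 10 were higher (20% of the members, 17% of genes at 1 RPKM or more) and 0 were lower (10.2% of genes), and the share that was higher lay near the share over all genes. The 10 were CENPA, CENPI, NDC80, KNTC1, CENPE, TPX2, NUSAP1, PLK1, TACC3 and CKAP2. TACC3 had the largest difference, with 23.5 and 26.9 RPKM in Huh1 and 71.8 and 88.3 RPKM in Huh7 (limma log2 difference 1.62 ± 0.09 (SE), Benjamini-Hochberg adjusted p of 4.09e-07). CENPE followed with a limma log2 difference of 1.46 ± 0.11 (SE), and CKAP2, a microtubule-stabilising spindle protein with 18.2 and 14.2 RPKM in Huh1 and 43.0 and 46.6 RPKM in Huh7, with 1.42 ± 0.12 (SE). TPX2 was the most abundant member in Huh7 with either siRNA, and BUB3 in Huh1 with NCsiRNA. CENPI, of the CENP-H, -I, -K and -M module, had 5.40 and 6.92 RPKM in Huh1 and 13.1 and 11.4 RPKM in Huh7. Each of the 10 genes past 2-fold was higher in both Huh7 libraries than in both Huh1 libraries, except for NUSAP1, whose Huh7 level after knockdown lay below the Huh1 control. For HJURP, in turn, both Huh1 levels were above both Huh7 levels.

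**Figure D4:**
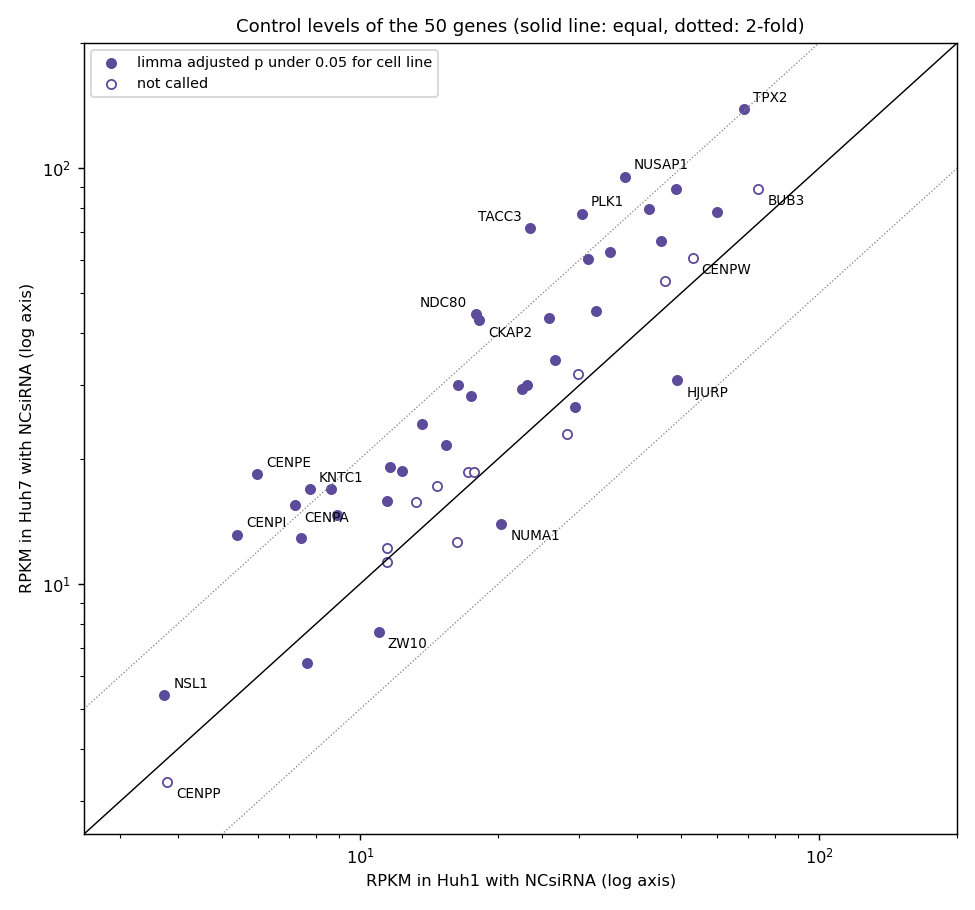
RPKM of the 50 genes with NCsiRNA in Huh1 (horizontal log axis) and Huh7 (vertical log axis), 1 library each, filled where limma called the cell line difference over both siRNAs. Most points lie above the solid line of equal levels, 10 lie past the upper dotted line of 2-fold and 0 past the lower one.

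Of the members, 7 were called both for the siRNA and for the cell line, and ZW10 was the 1 among them that was lower in Huh7. Over all genes tested 39.1% were called higher and 28.7% lower in Huh7. The share of all genes called for both effects is not given here, so the count of 7 has no background. CENPW and BUB3 were called for the siRNA alone. SKA2, SPC24, ZWILCH, NUSAP1, PLK1 and FAM83D were higher in Huh7, and of these SKA2 rose with CDCA8siRNA while the others fell.

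Other genes of the cell cycle were counted in the same fits, in which 4.21% of all genes tested were called lower and 6.03% higher with CDCA8siRNA. Of 13 further kinetochore genes 0 were called for the siRNA, with a median of -0.10 and 11 of 13 negative. Of 17 spindle pole and gamma-tubulin genes 0 were called, with a median of 0.00083. Of 12 microtubule end and dynein genes 3 rose and 0 fell, with a median of 0.12. These 3 were MAPRE1, the end-binding protein EB1, with a limma log2 fold change of 0.38, CLIP1, a plus-end tracking protein, with 0.62, and DYNC1H1, the dynein heavy chain, with 0.31. Of 7 S-phase genes 1 fell, PCNA, the sliding clamp of replication, with 109 and 72.8 RPKM in Huh1 and 194 and 71.9 RPKM in Huh7. Over both cell lines the median of the S-phase genes was -0.25, lower than that of the 50 members. Within Huh7 it was -0.47 beside -0.10 for the members, but within Huh1 it was -0.04 beside -0.06. The difference between the lists was not tested.

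Transcript length had a weak relation to the members' log2 fold changes, with a Spearman rho of 0.189 in Huh1 and 0.143 in Huh7 over the 50, beside 0.150 and 0.0912 over all genes with a length. Exons of 17 members overlap a gene on the other strand in GENCODE release 29, and 6 members have a pseudogene that carries their name (CENPI, BUB3, SKA2, AURKA, DLGAP5 and CKAP2). Among the called members that leaves NUSAP1, ZW10, CENPW and FAM83D without either.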

How the data were processed

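RNA-seq of 4 libraries was used, 1 for each combination of cell line (Huh1, Huh7) and siRNA, with groups taken from the labels and the dose and time from the study's methods. The labels give TruSeq RNA libraries from total RNA. The authors deposited RPKM values, 1 per RefSeq transcript row and library. The unit is not named in the tables and was read from the values. Between 1 and 10 reads, 36.8% to 40.7% of the values of a library, multiplied by the GENCODE length, came within 0.05 of a whole number of reads, and the lengths that the authors used are not known. The submitters' processing notes name CASAVA 1.8.2, TopHat2 2.0.9 and hg19. The counting step, the annotation release and the use of strand are not given in the sources used here. Library depth and reads per gene were estimated from RPKM and GENCODE release 29 lengths and served only to describe depth and counting SD.

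From the RPKM values, log2(RPKM + 1) was compared within pairs of libraries over genes that reached 1 RPKM in either of them, at 1.5-fold and 2-fold, with no test. The study's analysis of variance could not be repeated from its description. In its place limma 3.58.1 (R 4.3.3, lmFit and eBayes with a trend) was fitted to log2(RPKM + 1) of all 4 libraries with cell line and siRNA as terms, over 10357 genes that reached 1 RPKM in each cell line. The cell lines pair the libraries by design. Adjustment was by Benjamini-Hochberg over all genes tested. The steps were run on simulated data with planted changes of 2-fold or more. That run does not cover smaller changes, such as those of the called members other than NUSAP1. Other steps ran in Python 3.11.15 (scipy 1.17.1, pandas 2.3.3). Promoters came from a RefSeq table of GRCh38.p14. Levels of 1 further gene are not reported here.

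The members, the other gene lists, the markers and the motif letters were chosen with earlier results of these data known. Values in all libraries are given for members called for the siRNA, past 1.5-fold in either cell line, past 2-fold between the NCsiRNA libraries, or highest or lowest in their role, and for others that are set beside them, which were chosen after their values were seen. Alternatives were a pseudocount of 0.1 RPKM, no filter, a minimum of 5 RPKM, quantile normalization, upper quartile scaling, no trend and no block.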

Additional observations from a re-analysis of the deposited data

Results flagged for a closer look

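With CDCA8siRNA 14 members had changes of opposite sign in Huh1 and Huh7. The share of all genes with opposite signs is not given here, so this count has no background. Each value below is the log2 fold change in Huh7 minus that in Huh1. With 1 library per condition the difference was not tested, and the counting SD covers the sampling of reads only. For 4 members the change was negative in Huh1 and positive in Huh7. The difference was 0.51 for CENPA (counting SD 0.20), 0.45 for CENPT (counting SD 0.13), 0.45 for NUF2 (counting SD 0.12) and 0.45 for CKAP2 (counting SD 0.09). For CENPT the change in Huh1 was -0.0065, so its sign there was near 0. For the other 10 the change was positive in Huh1 and negative in Huh7. The difference was -0.50 for CENPI (counting SD 0.16), -0.38 for ITGB3BP (counting SD 0.19), -0.32 for CENPL (counting SD 0.20), -0.29 for ASPM (counting SD 0.04) and -0.26 for MAD2L1 (counting SD 0.05). It was -0.16 for KNTC1, -0.15 for CENPK, -0.12 for CENPN, -0.086 for CENPH and -0.072 for SKA1, and these 5 and CENPL lie within 2 counting SD.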

How the results depend on the processing

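Where limma called a member, its direction was the same under every alternative run, as no member's log2 change reversed. A pseudocount of 0.1 RPKM, a minimum of 5 RPKM, quantile normalization and upper quartile scaling kept all 9 siRNA calls, with adjusted p-values of NUSAP1 up to 0.00108 and of CENPW from 0.00708 to 0.0471. Without the filter on low values limma called 0 members lower and 0 higher with CDCA8siRNA, and 0 of 18398 genes in all, although 11 members and 2050 genes had an unadjusted p under 0.05; 2 members were then called lower and 20 higher in Huh7. Without the mean-variance trend 4 members were called lower with CDCA8siRNA, as BUB3, CENPW and FAM83D lost their call, and 267 in place of 436 genes were called lower. Quantile normalization called 750 genes lower. Without the cell line block limma called 0 members lower and 0 higher, and 0 of 10357 genes, with 0 members and 89 genes at an unadjusted p under 0.05. The cell line difference then enters the spread by construction. Without the siRNA block 1 member was called lower and 25 higher in Huh7, and 11 lost their call, NUSAP1 (adjusted p 0.172) and ZW10 (adjusted p 0.206) among them. The pseudocount of 0.1 RPKM gave 1 member at least 1.5-fold higher in Huh1 and 2 in Huh7, and upper quartile scaling gave 0 in Huh7. With quantile normalization 6 members were at least 2-fold higher in Huh7 with NCsiRNA, and the members' median difference there was 0.37, as it was with upper quartile scaling, beside -0.00057 and 0.05 over all genes. Quantile normalization moved the all-gene median of the cell line effect from 0.10 to -0.0099, and the members' median was then 0.47. CENPN and CENPO were no longer called for the cell line with either scaling, nor NSL1 with quantile normalization. Fits with a library removed were not possible, since 3 libraries leave no residual degree of freedom. Depth limits the members with few estimated reads, NSL1, SKA2 and CENPA among them.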
